A study of Mus musculus with 18 samples.

Results

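The cell cycle and proliferation genes described here were 50 genes chosen by name, from Ccnd1 and Cdkn1a to Mki67 and Top2a, out of 20615 genes in the count table. All 50 were found, and all passed the filter on low counts that left 15789 genes for testing. They are reported in 2 sets, 30 genes of G1 and S phase (16 regulators of G1 and 14 genes of DNA replication and nucleotide supply) and 20 genes of G2 and mitosis. The data were RNA-seq counts of bone marrow derived macrophages (BMDMs), 18 samples in 6 groups of 3. BMDMs came from female C57BL/6 (B6) mice and from C57BL/6.NOD-Aec1Aec2 (SjSS) mice, a strain that carries the NOD intervals Idd3 and Idd5 on a B6 background and serves as a model of Sjögren's syndrome. Mice were 7 to 12 weeks old, and BMDMs of both strains were differentiated for 7 days in medium with 20% L929 cell supernatant as a source of M-CSF. Control BMDMs were left untreated. AC treated BMDMs were given 5 apoptotic thymocytes, killed with dexamethasone, per macrophage for 2 hours, washed, and kept for 3 hours more by the labels, a time that the methods text gives differently. Thymi were taken from mice of both strains, and the methods text does not say which thymocytes each BMDM strain received for RNA-seq. The part of thymocyte strain in the differences between strains with ACs was not tested. CpG treated BMDMs were given 1 µM CpG, a DNA ligand of Toll-like receptors, for 6 hours. By the labels, all treatments were done in medium with 5% L929 cell supernatant. The cells were differentiated in culture, and no sample is of macrophages taken directly from a tissue.

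M-CSF drives the growth of macrophage progenitors through D-type cyclins, which bind CDK4 and CDK6 and lead to phosphorylation of the retinoblastoma protein and release of E2F factors. E2F factors then switch on genes for origin licensing, replication and nucleotide synthesis, while a later set of genes for mitosis is held down in resting cells by the DREAM complex through CHR elements in their promoters, which also hold CCAAT elements bound by the activator NF-Y. CDK inhibitors such as p21 (Cdkn1a) and p27 (Cdkn1b) oppose the kinases, and macrophages activated through Toll-like receptors are known to stop dividing.

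Total counts were between 30688336 and 57139662 per sample, and the 50 genes together took 0.137% to 0.286% of them. Their lowest count in any sample was 58, and the lowest sum over a group was 245. Values are given as CPM, the count of a gene relative to the TMM scaled total of its sample, as mean ± SD of 3 samples where a mean is given. TMM factors were 0.833 to 0.838 in AC treated, 1.10 to 1.13 in control and 1.01 to 1.03 in CpG treated SjSS samples, and 0.942 to 1.09 in B6 samples. Small rises with ACs in SjSS, such as those of Ccnd1, Cdt1, Mki67 and Cenpe below, depend on this scaling and were not tested without it. The same holds where AC treated SjSS samples were slightly higher than AC treated B6 samples, as for Mcm6. All 9 macrophage markers, among them Adgre1 and Csf1r, were detected in every group, with a summed level of 15590 to 23885 CPM. Of 20 T-lineage markers, which the apoptotic thymocytes could have carried, 13 did not pass the filter, and their summed level was higher after AC than in controls, at 0.256 to 0.355 CPM (52 counts) in control and 0.973 to 1.60 CPM (182 counts) in AC treated B6 samples, and at 0.118 to 0.553 and 0.583 to 0.879 CPM in SjSS. CpG treated B6 samples, which were given no thymocytes, also lay above the controls, at 0.504 to 1.02 CPM (93 counts), and overlapped the AC range. In CpG treated SjSS samples the sum was 0.247 to 0.571 CPM. Cd3d, Cd3e, Cd3g, Trac, Trbc1 and Trbc2 each held at most 24 counts over the 3 samples of any group. The summed level of all 20 T-lineage markers fell within each strain from control to AC to CpG treated BMDMs, from 70.1–85.6 to 26.9–33.5 to 11.0–13.1 CPM in B6, and most of it was Cd28 and Cd4. Markers of progenitors, of which 4 of 8 were in the table, had a summed level of 11.0 to 13.7 CPM in control B6 and 11.7 to 17.3 CPM in control SjSS BMDMs, and 2.09 to 6.98 CPM in the treated groups. The part of these shifts in the results below was not tested. In bulk samples, fewer cycling cells and less RNA per cell cannot be told apart. Each strain was represented by as many mice as a group has samples, but nothing in the labels ties samples to single animals, so p-values measure the spread between these samples.

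RefSeq promoter windows of 300 bases (250 before the start of the gene and 50 after, build GRCm38.p6) were found for 39 of the 50 genes, 23 of G1/S and 16 of G2/M. For 37 of the 39 the start lay within 500 bases of the gene start in the deposited coordinates. For 31 the bases after the start were found near the beginning of a GENCODE M21 transcript of the gene. All 39 were counted. An E2F word (TTCCCGC or TTGGCGC, on either strand) was in 11 of the 23 G1/S windows (47.8%) and 3 of the 16 G2/M windows (18.8%), against 6.81% of all 32851 windows. A CHR word (TTTGAA or TTCGAA, on either strand) was in 2 of the G1/S windows (8.70%) and 13 of the G2/M windows (81.2%), against 19.2% of all windows. The word CCAAT, which can overlap an E2F word on the other strand, was in 12 of the G1/S windows (52.2%) and 15 of the G2/M windows (93.8%), against 37.4% of all. These are matches of letters, not measured binding. The 180 bases before the start are printed for 4 genes of each set, because the 2 sets are set apart throughout. The G1/S examples are Mcm5 at chr8:75109329-75109508 (plus strand), Mcm6 at chr1:128359706-128359885 (minus strand), Cdk2 at chr10:128705052-128705231 (minus strand) and Rrm1 at chr7:102441515-102441694 (plus strand). They are written 5′ to 3′ on the strand of the gene, with only E2F words in capitals. The CCAAT words that these stretches also hold are left in lower case.
Mcm5: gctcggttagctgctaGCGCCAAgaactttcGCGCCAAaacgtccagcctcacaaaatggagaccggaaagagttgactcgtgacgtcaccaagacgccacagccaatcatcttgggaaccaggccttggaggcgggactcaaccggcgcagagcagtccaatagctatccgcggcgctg
Mcm6: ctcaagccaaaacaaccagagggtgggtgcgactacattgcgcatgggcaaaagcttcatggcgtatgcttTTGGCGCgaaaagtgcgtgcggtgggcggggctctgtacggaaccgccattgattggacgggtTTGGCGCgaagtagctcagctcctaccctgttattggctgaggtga
Cdk2: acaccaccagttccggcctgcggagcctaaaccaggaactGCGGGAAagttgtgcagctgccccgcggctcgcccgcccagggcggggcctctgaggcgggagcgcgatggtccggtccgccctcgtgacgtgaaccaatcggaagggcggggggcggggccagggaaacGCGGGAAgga
Rrm1: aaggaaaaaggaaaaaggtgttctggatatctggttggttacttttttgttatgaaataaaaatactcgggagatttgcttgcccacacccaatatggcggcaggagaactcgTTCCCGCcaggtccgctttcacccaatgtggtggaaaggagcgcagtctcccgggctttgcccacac

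The G2/M examples are Mki67 at chr7:135716380-135716559 (minus strand), Cdc20 at chr4:118437344-118437523 (minus strand), Kif11 at chr19:37376202-37376381 (plus strand) and Top2a at chr11:99024190-99024369 (minus strand). Capitals mark only CHR and CCAAT words on either strand, and an E2F word (ttggcgc) in Mki67 is left in lower case.
Mki67: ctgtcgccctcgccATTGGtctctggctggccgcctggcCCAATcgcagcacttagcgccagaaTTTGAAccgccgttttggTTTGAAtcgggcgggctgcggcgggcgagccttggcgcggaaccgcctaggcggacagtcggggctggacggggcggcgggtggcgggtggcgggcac
Cdc20: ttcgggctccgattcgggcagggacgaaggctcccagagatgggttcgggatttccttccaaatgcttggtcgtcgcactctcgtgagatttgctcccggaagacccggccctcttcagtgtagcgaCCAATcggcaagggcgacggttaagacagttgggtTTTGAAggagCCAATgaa
Kif11: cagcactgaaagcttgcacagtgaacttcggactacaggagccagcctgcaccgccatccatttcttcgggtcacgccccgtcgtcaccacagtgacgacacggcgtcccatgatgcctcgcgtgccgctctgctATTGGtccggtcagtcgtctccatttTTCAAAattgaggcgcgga
Top2a: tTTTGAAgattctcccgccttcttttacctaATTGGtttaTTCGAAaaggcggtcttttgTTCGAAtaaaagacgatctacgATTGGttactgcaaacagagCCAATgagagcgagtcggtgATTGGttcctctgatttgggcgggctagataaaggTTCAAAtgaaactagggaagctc

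The response of the G1/S genes to CpG, the inflammatory stimulus of the design, was a broad fall in both strains. Of the 30 genes, 21 fell and 4 rose in B6 BMDMs, where 29.8% of all tested genes fell and 28.1% rose (edgeR's quasi-likelihood test, adjusted p under 0.05 by the Benjamini-Hochberg method, as throughout). In SjSS BMDMs 22 fell and 3 rose, where 26.4% of all genes fell and 27.8% rose. The median log2 fold change of the 30 genes was -1.06 in B6 and -0.65 in SjSS, against -0.04 and -0.01 over all tested genes. With the further limit of a log2 fold change over 1.3 in size, 8 of the 30 were called in B6 and 4 in SjSS, where 12.7% and 9.26% of all genes were. All 21 genes that fell in B6 were among the 22 that fell in SjSS.

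Mcm2 to Mcm7, the 6 subunits of the helicase that is loaded at replication origins, fell together. Their summed level was 290, 240 and 236 CPM in the control B6 samples and 107, 92.7 and 96.1 CPM after CpG, and 282, 277 and 358 CPM in control SjSS samples and 129, 134 and 138 CPM after CpG. In neither strain did the groups overlap. Each of the 6 subunits passed in each strain, with log2 fold changes of -1.03 (Mcm3) to -1.83 (Mcm7) in B6 and -1.08 (Mcm3) to -1.45 (Mcm2) in SjSS. Mcm2 gave 37.7, 30.8 and 31.9 CPM in control B6 samples and 12.3, 9.29 and 9.50 CPM after CpG, a log2 fold change of -1.69 ± 0.14 (SE, adjusted p = 2.94e-09, edgeR). Mcm7 gave 40.7, 30.1 and 29.2 CPM and then 10.1, 8.15 and 9.82 CPM (-1.83 ± 0.16, adjusted p = 9.97e-09, edgeR). Mcm7 (chr5:138164583-138172423) overlaps Ap4m1 and Cops6 on the other strand, and the sources used here do not say whether counting used strand.

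The rest of the replication genes moved the same way. The loading factors Cdc6 (-1.69 ± 0.19 in B6, -1.22 ± 0.19 in SjSS) and Cdt1 (-1.11 ± 0.08 and -0.46 ± 0.08) fell, as did Gins2, a subunit of the replicative helicase complex (-1.13 ± 0.08 and -0.76 ± 0.08). Pcna, the sliding clamp of DNA polymerase, fell less, from 200 ± 9.07 to 138 ± 4.29 CPM in B6 and from 200 ± 1.86 to 145 ± 8.87 CPM in SjSS. Both subunits of ribonucleotide reductase fell, Rrm1 by 0.96 and Rrm2 by 1.12 on the log2 scale in B6, and by 0.90 and 0.85 in SjSS. Thymidine kinase 1 (Tk1) fell by 0.91 in B6 and by 0.80 in SjSS. Thymidylate synthase (Tyms) was the 1 gene of the 14 that did not pass in either strain. It gave 7.83, 5.90 and 6.34 CPM in control B6 samples and 7.66, 6.02 and 6.78 CPM after CpG, so that the groups overlapped.

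**Figure D1:**
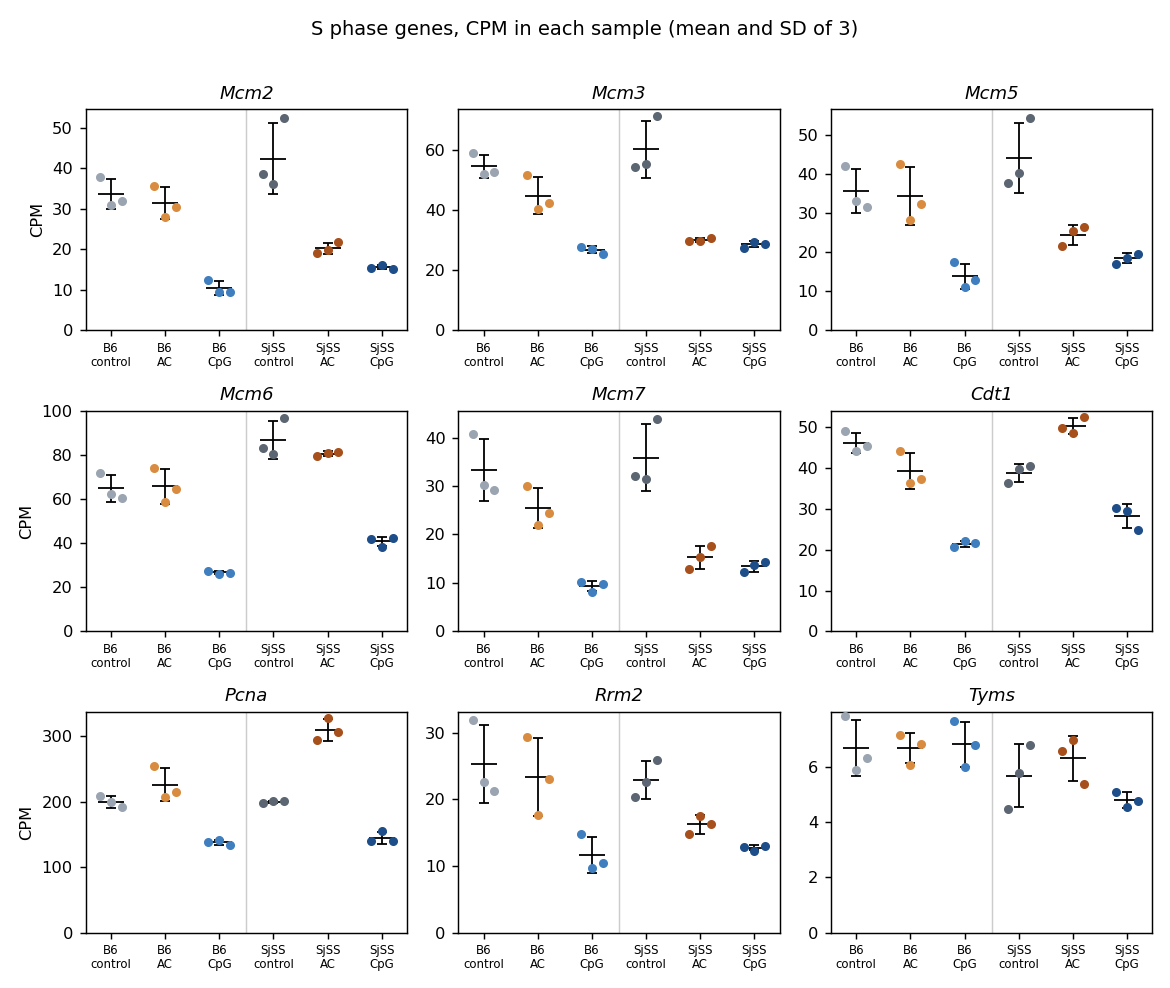
CPM (linear axis from 0) of 9 of the S phase genes in each of the 18 samples by group. Points are samples, and bars are the mean and SD of 3. Mcm2, Mcm3, Mcm5, Mcm7, Cdt1, Pcna and Rrm2 lie lower after CpG than in controls in both strains, as does Mcm6, whose AC treated samples lie with the controls. Tyms overlaps between control and CpG treated samples in both strains.

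Among the regulators, the D-type cyclins, the sensors of growth factors, fell with CpG. Ccnd1 (chr7:144929931-144939926) was at 341, 307 and 318 CPM in the control B6 samples and at 75.2, 69.0 and 78.6 CPM after CpG, and at 266, 266 and 251 CPM and then 122, 133 and 125 CPM in SjSS. The groups did not overlap, and the log2 fold change was -2.12 ± 0.07 in B6 (adjusted p = 1.19e-14, edgeR) and -1.04 ± 0.07 in SjSS (adjusted p = 1.70e-10). Ccnd2 fell by 1.20 in B6 and by 0.55 in SjSS. Ccnd3 did not pass in either strain (0.01 ± 0.08 and -0.16 ± 0.08). E2f2, an activating E2F factor, was at 12.5 ± 0.532 CPM in control B6 BMDMs and 2.86 ± 0.218 CPM after CpG, and at 17.2 ± 0.820 and 4.63 ± 0.463 CPM in SjSS, while E2f1 did not pass (-0.14 ± 0.08 and -0.17 ± 0.08). The E-type cyclins Ccne1 (-1.10 and -0.41) and Ccne2 (-1.37 and -0.75), their kinase Cdk2 (-0.36 and -0.47), Cdk4 (-0.27 and -0.20) and the CDK4 and CDK6 inhibitor Cdkn2c (-1.27 and -0.90) also fell.

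Not all regulators fell. Myc, a transcription factor that promotes growth, rose from 27.9, 22.8 and 25.4 to 49.2, 38.0 and 39.2 CPM in B6 samples and from 13.2, 14.5 and 11.9 to 30.4, 33.0 and 38.3 CPM in SjSS samples, with no overlap in either strain. The log2 fold changes were 0.73 ± 0.11 (adjusted p = 8.29e-06, edgeR) and 1.36 ± 0.11 (adjusted p = 5.10e-09). Cdc25a, a phosphatase that activates CDK2, rose by 0.41 ± 0.09 and 0.83 ± 0.09 on the log2 scale. The inhibitors Cdkn1a and Cdkn1b rose in B6 BMDMs, by 0.37 ± 0.11 and 0.38 ± 0.09. In SjSS BMDMs Cdkn1a did not pass (-0.10 ± 0.11), and Cdkn1b fell by 0.23. Rb1 did not pass in either strain, and Cdk6 passed in SjSS (0.49 ± 0.10) but not in B6 (0.08 ± 0.10).

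All 25 G1/S calls in B6 held when any 1 sample was left out. In SjSS 22 of 25 did. Those of Ccne1 (adjusted p = 0.0807 without control replicate 3 and 0.0829 without CpG replicate 1), Ccne2 (0.0531 without control replicate 1) and Cdkn1b did not. The Cdkn1b call was lost without control replicate 1 (adjusted p = 0.0753) or 3 (0.178) and without CpG replicate 1 (0.0703) or 2 (0.158).

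**Figure D2:**
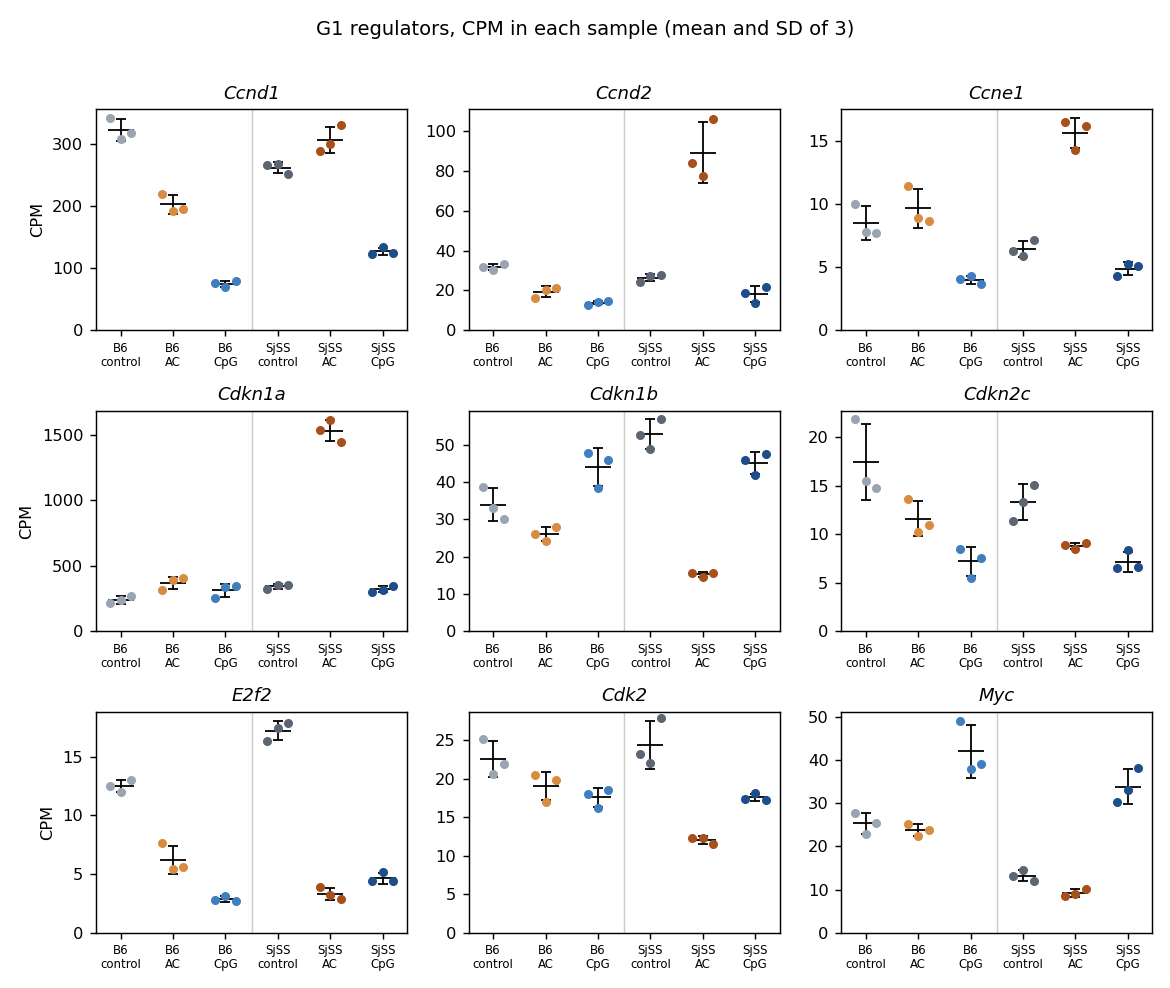
CPM (linear axis from 0) of 9 G1 regulators in each of the 18 samples by group, with points for samples and bars for the mean and SD of 3. Ccnd1 is lowest after CpG in both strains, while Cdkn1a, Ccnd2 and Ccne1 are highest and Cdkn1b lowest in AC treated SjSS BMDMs, where the 3 Cdkn1a samples lie between 1450 and 1616 CPM.

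The response to ACs, the question of the design, was smaller in B6 than that to CpG and was mixed in direction in SjSS. In B6 BMDMs 13 of the 30 G1/S genes fell and 2 rose, where 18.3% of all tested genes fell and 20.0% rose. In SjSS BMDMs 17 fell and 7 rose, where 29.4% of all genes fell and 28.6% rose. The median log2 fold change was -0.19 in B6 and -0.43 in SjSS, against 0.00 and -0.02 over all tested genes. Past a log2 fold change of 1.3 in size there were 0 of the 30 in B6, where 4.47% of all genes were called, and 4 in SjSS, where 12.9% were. The 4 of 30 in SjSS thus lay near the share of all genes. These 4 were Cdkn1a and Ccnd2, which rose, and E2f2 and Cdkn1b, which fell.

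Cdkn1a (chr17:29090979-29100723), which encodes the CDK inhibitor p21, rose in both strains. It was at 215, 237 and 272 CPM in control and 315, 389 and 404 CPM in AC treated B6 samples, and at 320, 358 and 351 CPM in control and 1535, 1616 and 1450 CPM in AC treated SjSS samples. The 3 AC treated SjSS samples were higher than all other samples. The log2 fold change was 0.61 ± 0.11 in B6 (adjusted p = 0.000252, edgeR) and 2.16 ± 0.12 in SjSS (adjusted p = 7.49e-12). Cdkn1b (chr6:134920401-134925514), which encodes p27, went the other way, from 38.7, 33.0 and 30.1 to 26.2, 24.2 and 28.0 CPM in B6 and from 52.6, 48.9 and 57.0 to 15.5, 14.6 and 15.6 CPM in SjSS. Its log2 fold change was -0.38 ± 0.09 in B6 (adjusted p = 0.00352, edgeR, and 0.0523 with all 3 B6 samples numbered 1 left out) and -1.79 ± 0.10 in SjSS (adjusted p = 9.42e-12). Cdkn2c fell by 0.59 in each strain, and its B6 call was lost without control replicate 1 (adjusted p = 0.0679).

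Of the D-type cyclins, Ccnd1 and Ccnd2 moved in opposite directions in the strains, while Ccnd3 fell in B6 (-0.23 ± 0.08) and did not pass in SjSS (-0.11 ± 0.08). Ccnd1 fell from 322 ± 17.5 to 202 ± 14.9 CPM in B6 and rose from 266, 266 and 251 to 289, 300 and 329 CPM in SjSS, where the 3 AC treated samples lay above the 3 controls. This SjSS rise of Ccnd1 (0.23 ± 0.07) depends on the TMM scaling given above. Ccnd2 (chr6:127125162-127152194) was at 31.8, 30.3 and 33.4 CPM in control and 16.3, 20.2 and 21.4 CPM in AC treated B6 samples. In SjSS it was at 24.3, 27.0 and 27.9 CPM and then 84.1, 77.4 and 106 CPM, and the groups did not overlap in either strain. Its log2 fold change was -0.72 ± 0.13 in B6 (adjusted p = 0.000288, edgeR) and 1.76 ± 0.13 in SjSS (adjusted p = 1.24e-09). Ccne1 did not pass in B6 (0.18 ± 0.13) and rose in SjSS, from 6.32, 5.92 and 7.18 to 16.5, 14.3 and 16.2 CPM (1.27 ± 0.13, adjusted p = 7.99e-08, edgeR). Cdk6 rose in both strains, by 0.54 ± 0.10 and 0.85 ± 0.10. Ccne2, Cdc25a and Rb1 did not pass in either strain.

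E2f2 fell in both strains, from 12.5, 12.0 and 13.0 to 7.61, 5.43 and 5.57 CPM in B6 and from 16.3, 17.5 and 17.9 to 3.85, 3.18 and 2.85 CPM in SjSS. E2f1 (-0.71 ± 0.08), Cdk2 (-1.02 ± 0.10) and Myc (-0.51 ± 0.12) fell in SjSS. In B6 E2f1 and Myc did not pass, and Cdk2 passed narrowly (-0.24 ± 0.09, adjusted p = 0.0497, edgeR) and lost the call under 8 of the alternatives tried, with adjusted p of up to 0.250.

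Among the replication genes, 5 of 14 fell in AC treated B6 BMDMs, and 10 fell and 2 rose in SjSS. The summed level of Mcm2 to Mcm7 was 266, 202 and 222 CPM in AC treated B6 samples, which overlapped the controls. It was 185, 192 and 202 CPM in AC treated SjSS samples, all below the controls. In SjSS 5 of the 6 subunits fell, by 0.68 (Mcm4) to 1.23 (Mcm7) on the log2 scale, and Mcm6 did not pass (-0.11 ± 0.08), with 83.3, 80.4 and 96.6 CPM in control and 79.3, 80.7 and 81.5 CPM in AC treated samples. In B6 Mcm3 (-0.28 ± 0.10) and Mcm7 (-0.39 ± 0.15) passed. Cdc6 fell by 0.63 in B6 and by 1.15 in SjSS, and Gins2 by 0.39 and 0.68. Pcna rose in SjSS from 198, 201 and 201 to 295, 328 and 307 CPM (0.63 ± 0.07, adjusted p = 1.79e-07, edgeR) and did not pass in B6 (0.17 ± 0.07, adjusted p = 0.0524). Cdt1 also rose in SjSS, from 36.3, 39.8 and 40.5 to 49.8, 48.5 and 52.5 CPM (0.37 ± 0.08), and fell by 0.24 in B6. Pcna has 2 and Tyms 1 annotated pseudogene named after it, and Cdt1 overlaps Gm20388 on the same strand.

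The G1/S counts for ACs in B6 rested on single samples. They were 8 of 30 without control replicate 1 and 9 of 30 without AC replicate 2, and 7 of the 15 calls held whichever sample was left out. Those lost were of Ccnd3, Cdk4, Cdk2, Cdkn2c, Cdc6, Cdt1, Mcm3 and Mcm7. In SjSS 21 of 24 calls held, and those of Cdk4 (adjusted p = 0.0693 without AC replicate 3), Rrm2 (0.100 without control replicate 3) and Tk1 (0.227 without control replicate 3) did not.

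**Figure D3:**
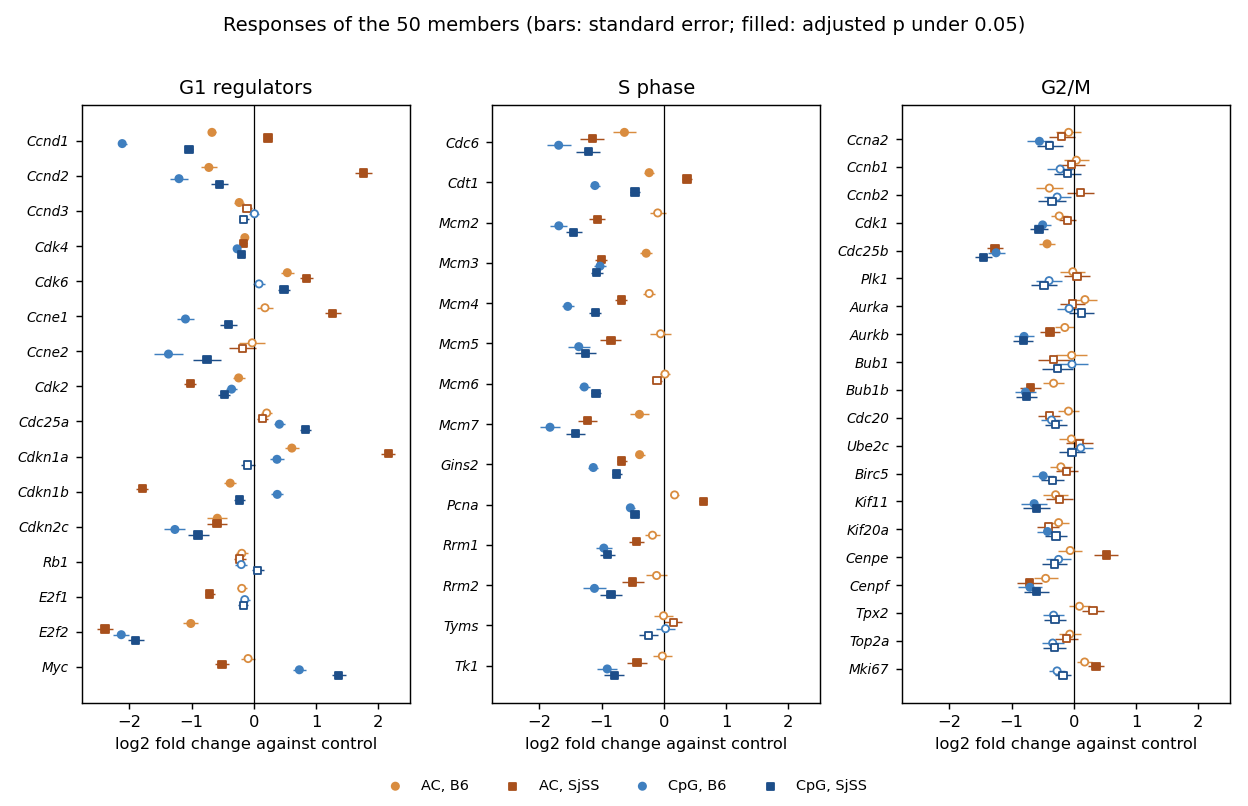
Log2 fold change against control of each of the 50 genes for AC (orange) and CpG (blue) in B6 (circles) and SjSS (squares), with bars for the standard error and filled symbols for an adjusted p under 0.05. The S phase genes lie to the left of 0 for CpG in both strains except Tyms in B6 (0.03), and most G2/M genes lie closer to 0.

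The responses of the strains were compared directly by the interaction of strain and treatment, which is the log2 response in SjSS minus that in B6. For ACs it passed for 16 of the 30 G1/S genes, 6 higher and 10 lower in SjSS, where 19.6% and 18.3% of all tested genes were. Past 1.3 in size there were 4, where 7.53% of all genes were called, and they were Ccnd2 (2.48 ± 0.19), Cdkn1a (1.55 ± 0.16), Cdkn1b (-1.41 ± 0.14) and E2f2 (-1.38 ± 0.18). The interaction was negative for 5 of the 6 MCM subunits, from -0.45 ± 0.13 for Mcm4 to -0.97 ± 0.18 for Mcm2, and did not pass for Mcm6 (-0.13 ± 0.12). Of the 16 calls, 15 held when any 1 sample was left out, and Myc (-0.42 ± 0.16, adjusted p = 0.0463, edgeR) lost it in 8 of those fits, with adjusted p of up to 0.127. For CpG the interaction passed for 5 of the 30, 4 higher and 1 lower, where 3.23% and 2.62% of all genes were. They were Ccnd1 (1.07 ± 0.10), Ccne1 (0.69 ± 0.19), Cdt1 (0.65 ± 0.11), Myc (0.63 ± 0.15) and Cdkn1b (-0.61 ± 0.13). This count was 3 without control B6 replicate 1 or without CpG B6 replicate 2 or 3, and 9 without control B6 replicate 3. With the replicate block it was 12, where 9.19% of all genes passed with the block and 5.85% without. The Ccne1 and Myc calls were lost in 8 and 4 of the fits without 1 sample, with adjusted p of up to 0.108 and 0.0629.

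**Figure D4:**
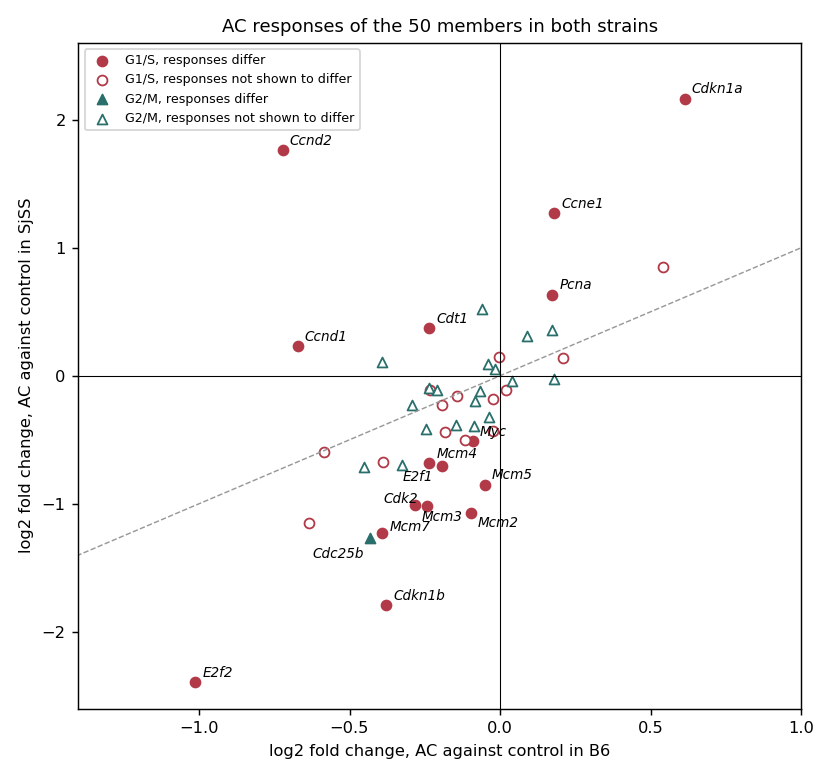
Log2 fold change for AC against control in B6 (horizontal axis) and SjSS (vertical axis, on another scale) for the 50 genes, circles for G1/S and triangles for G2/M. Filled and named symbols are the 17 genes whose interaction passed, and the dashed line is where both responses are equal. Ccnd2 lies at -0.72 and 1.76, and Cdkn1a at 0.61 and 2.16.

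The G2/M genes varied together between samples of a group, though less so in AC treated SjSS BMDMs. Their summed level was 610, 461 and 407 CPM in the control, 556, 403 and 464 CPM in the AC treated and 492, 316 and 324 CPM in the CpG treated B6 samples. The first of each is the sample numbered 1 in the labels. In each of the 3 B6 groups all 20 G2/M genes were highest in the sample numbered 1. Many of the 30 G1/S genes were too, 24 in control, 24 in AC treated and 17 in CpG treated B6 BMDMs. The summed level in SjSS samples was 372, 368 and 432 CPM in controls, 383, 362 and 410 CPM after AC and 302, 282 and 325 CPM after CpG. In SjSS controls all 20 genes were highest in replicate 3. After AC 13 were highest in replicate 3, 5 in replicate 2 and 2 in replicate 1, and after CpG 18 in replicate 3 and 2 in replicate 1. The 3 CpG treated SjSS samples lay below the 3 controls, CpG treated and control samples overlapped in B6, and AC treated and control samples overlapped in both strains. The sources used here give no batch or day that these samples share, and the part of replicate number in the results was not tested beyond the fits given below.

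**Figure D5:**
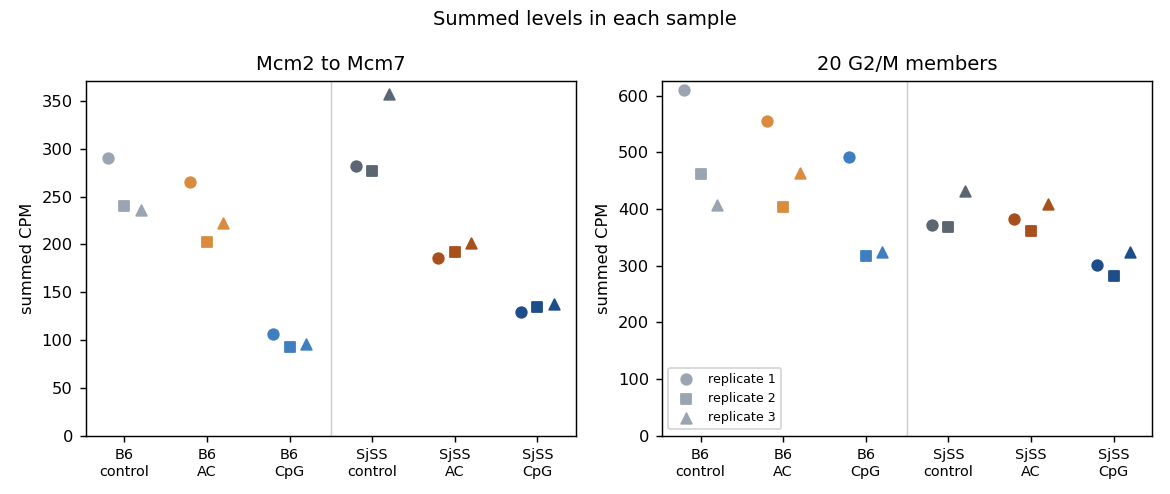
Summed CPM (linear axis from 0) of Mcm2 to Mcm7 (left) and of the 20 G2/M genes (right) in each sample, with a symbol for each replicate number. The MCM sum is 92.7 to 138 CPM in all 6 CpG treated samples and at least 185 CPM in all others, and replicate 1 is highest among the B6 samples of each treatment in the G2/M sum.

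With CpG, 9 of the 20 G2/M genes fell in B6 and 6 in SjSS, and 0 rose in either strain, where 29.8% and 26.4% of all genes fell and 28.1% and 27.8% rose. The 6 of 20 that fell in SjSS lay near the share of all genes. The median log2 fold change was -0.38 in B6 and -0.33 in SjSS. The 6 that fell in SjSS all fell in B6 too: Cdk1, the kinase that drives entry into mitosis (-0.50 ± 0.14 and -0.56 ± 0.14), Cdc25b, a phosphatase that activates it (-1.25 ± 0.14 and -1.46 ± 0.14), Aurkb of the chromosomal passenger complex (-0.80 ± 0.16 and -0.81 ± 0.16), the spindle checkpoint kinase Bub1b (-0.78 ± 0.17 and -0.76 ± 0.17), the spindle motor Kif11 (-0.64 ± 0.21 and -0.60 ± 0.21) and the kinetochore gene Cenpf (-0.71 ± 0.20 and -0.61 ± 0.20). In B6 Ccna2 (-0.55 ± 0.20), Birc5 (-0.49 ± 0.17) and Kif20a (-0.42 ± 0.17), which encode cyclin A, survivin and a kinesin of cytokinesis, also passed. Cdc25b (chr2:131186949-131198498) was at 18.2, 16.3 and 15.0 CPM in control and 8.57, 5.80 and 6.35 CPM in CpG treated B6 samples, and at 20.2, 21.4 and 24.0 CPM and then 7.80, 7.86 and 8.24 CPM in SjSS. It did not overlap between the groups and was the 1 G2/M gene past a log2 fold change of 1.3 in size, in SjSS. The proliferation marker Mki67 gave 137, 117 and 101 CPM in control and 120, 85.1 and 88.2 CPM in CpG treated B6 samples, which overlapped, and it did not pass (-0.27 ± 0.12, adjusted p = 0.0675, edgeR). The B-type cyclins Ccnb1 and Ccnb2, the mitotic kinases Plk1, Aurka and Bub1, the spindle factor Tpx2, Cdc20 and Ube2c of the anaphase-promoting complex pathway, the kinetochore motor Cenpe and the topoisomerase Top2a also did not pass in either strain, with log2 fold changes of -0.40 (Plk1) to 0.11 (Ube2c) in B6 and -0.48 (Plk1) to 0.12 (Aurka) in SjSS.

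These counts depended on how replicate numbers were handled. Between the control and CpG treated B6 samples, same-numbered samples deviated together (correlations of 0.260, 0.264 and 0.137), and with the replicate number as a block 16 of the 20 genes passed, all lower. Of all tested genes 60.2% passed with the block and 57.9% without it. In SjSS, where the 3 correlations were 0.142, 0.0593 and 0.131, 15 of the 20 passed with the block, all lower, and of all tested genes 56.5% passed with it and 54.2% without. With all 3 B6 samples numbered 1 left out, an alternative chosen after the data were seen, 14 passed in B6, as did 50.3% of all tested genes. The B6 count was 17 without CpG replicate 1, and 5 without control replicate 1, CpG replicate 2 or CpG replicate 3. The calls of Ccna2, Birc5, Kif11 and Kif20a in B6 and of Kif11 and Cenpf in SjSS were lost in some of these fits, with adjusted p of up to 0.227 (Ccna2, without control replicate 1).

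With ACs, 1 of the 20 G2/M genes fell in B6 and 0 rose, where 18.3% and 20.0% of all genes did. It was Cdc25b, at 14.5, 9.99 and 12.2 CPM after AC (-0.43 ± 0.13, adjusted p = 0.0141, edgeR). Its call was lost without control replicate 1 (adjusted p = 0.0690) and without AC replicate 2 (0.0946), so the count was 0 there, and the count was 2 without control replicate 3 or AC replicate 1 and 3 without all 3 samples numbered 1. With the replicate block it was 7, 1 higher and 6 lower, where 41.3% of all genes passed with the block and 38.3% without. In SjSS 4 fell and 2 rose, where 29.4% and 28.6% of all genes did. Those that fell were Cdc25b (-1.27 ± 0.13), Cenpf (-0.71 ± 0.20), Bub1b (-0.69 ± 0.17) and Aurkb (-0.38 ± 0.16). Those that rose were the kinetochore motor Cenpe, from 20.2, 17.8 and 21.6 to 28.8, 26.9 and 30.1 CPM (0.52 ± 0.20, adjusted p = 0.0296, edgeR), and Mki67, from 84.7, 82.5 and 93.1 to 116, 96.4 and 121 CPM (0.36 ± 0.12, adjusted p = 0.0186). In neither gene did the SjSS groups overlap at the TMM scaling given above, on which both rises depend. The SjSS count was 3 without AC replicate 1 or 3, and the calls of Aurkb, Cenpe and Mki67 were each lost in 4 of the fits without 1 sample, with adjusted p of up to 0.245, 0.0966 and 0.0763.

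The interaction for ACs passed for 1 of the 20, Cdc25b (-0.84 ± 0.19, adjusted p = 0.00164, edgeR), for 2 without control B6 replicate 3 and for 4 with the replicate block, where 41.2% of all genes passed with the block and 37.9% without. For CpG it passed for 0 of the 20, with 0 at an unadjusted p under 0.05 and a lowest adjusted p of 0.598 in edgeR, and with 0 in DESeq2. Of all tested genes 3.23% were higher and 2.62% lower, so the 0 of 20 lay near the share of all genes. The 20 interaction estimates for CpG were between -0.23 and 0.20 on the log2 scale.

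Both treated groups were also set against each other. In B6, 21 of the 30 G1/S genes were higher and 3 lower after AC than after CpG, where 23.7% and 22.4% of all genes were, and 4 of the 20 G2/M genes were higher. In SjSS, 13 G1/S genes were higher and 7 lower, where 25.7% and 26.5% of all genes were, and 6 G2/M genes were higher. The 4 and 6 of 20 G2/M genes lay near the shares of all genes that were higher. The replication genes differed most in B6, where 13 of 14 were higher after AC, against 7 of 14 in SjSS. Mcm3 is an example, with 51.9, 40.3 and 42.5 CPM after AC and 27.8, 27.2 and 25.5 CPM after CpG in B6, and 29.9, 29.6 and 30.8 CPM and 27.5, 29.4 and 28.9 CPM in SjSS, where the difference did not pass (0.07 ± 0.10). The genes lower after AC than after CpG in both strains were Myc (-0.82 and -1.87) and Cdkn1b (-0.76 and -1.56). The G2/M count in B6 was 16 without CpG replicate 1, 7 without AC replicate 2, 15 with all 3 samples numbered 1 left out and 15 with the replicate block, where 48.9% of all genes passed with the block and 46.1% without.

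The strains were then compared within each treatment. In control BMDMs, of the 30 G1/S genes 5 were higher and 5 lower in SjSS, where 9.04% of all tested genes were higher and 10.6% lower, and of the 20 G2/M genes 1 was higher and 2 lower. Myc was lower in SjSS, 13.2 ± 1.29 against 25.4 ± 2.51 CPM (-0.95 ± 0.11, adjusted p = 9.81e-06, edgeR). Cdkn1b (0.64 ± 0.09), Cdkn1a (0.51 ± 0.11), E2f2 (0.46 ± 0.12) and Mcm6 (0.42 ± 0.08) were higher, and Cdc25a (-0.40 ± 0.09) and Ccnd1 (-0.30 ± 0.07) were lower. The other 3, Ccne1, E2f1 and Cdt1, lost the call in fits without 1 sample. In the G2/M set Cdc25b was higher and Kif20a and Mki67 lower, and none of the 3 calls held whichever sample was left out. Stromal markers had a summed level of 44.7 to 148 CPM over B6 samples and 158 to 248 CPM over SjSS samples, and their part in the strain differences was not tested. The G2/M count was 0 without SjSS replicate 2, 1 without B6 replicate 1 or 2 and 6 without B6 replicate 3.

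After AC treatment 8 of the 30 G1/S genes were higher and 15 lower in SjSS than in B6, where 24.0% of all genes were higher and 25.5% lower, and 0 of the 20 G2/M genes were higher and 6 lower. Cdkn1a was at 1534 ± 82.8 CPM in SjSS against 369 ± 47.8 CPM in B6, and Ccnd2 at 89.3 ± 15.1 against 19.3 ± 2.64 CPM. Myc was lower in SjSS, with 8.55, 8.94 and 10.2 CPM against 25.1, 22.5 and 23.8 CPM in B6 (-1.37 ± 0.12, adjusted p = 1.12e-08, edgeR), and the groups did not overlap. The other G1/S genes that were lower had log2 differences of -0.25 (Rb1) to -0.92 (E2f2), and 5 of the 6 MCM subunits were among them, from -0.33 (Mcm4) to -0.73 (Mcm7). The calls of Rb1, Mcm4, Mcm5, Rrm2 and Tk1 were lost in fits without 1 sample. The 6 of 20 lower G2/M genes lay near the share of all genes that were lower. They were Cdc25b, Aurka, Bub1b, Cdc20, Kif20a and Cenpf, with log2 differences of -0.43 (Cdc25b) to -0.76 (Cenpf). The calls of Cdc25b and Aurka were lost in 2 and 4 of the fits without 1 sample, with adjusted p of up to 0.104 and 0.0968.

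After CpG treatment 10 of the G1/S genes were higher and 3 lower in SjSS, where 10.2% and 9.57% of all genes were, and 1 of the 20 G2/M genes, Ccnb2, was lower. The largest G1/S differences were of Ccnd1 (0.77 ± 0.07), E2f2 (0.69 ± 0.14), Mcm6 (0.61 ± 0.09) and Mcm2 (0.58 ± 0.14). The log2 difference of Ccnb2 was -0.66 ± 0.22. Mcm6 was thus higher in SjSS in each of the 3 treatments, with 0.42, 0.29 and 0.61 on the log2 scale (control, AC and CpG), although without 1 sample its AC difference reached an adjusted p of 0.0528. TMM factors were 0.833 to 0.838 in AC treated SjSS and 1.02 to 1.04 in AC treated B6 samples. The AC difference of Mcm6 depends on this scaling and was not tested without it. The G1/S count was 8 without SjSS CpG replicate 2. The Ccnb2 call was lost, and the G2/M count 0, without CpG B6 replicate 1 or without CpG SjSS replicate 1 or 2, and the count was 3 and 4 without CpG B6 replicates 2 and 3.

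Other genes of these pathways, from lists that were also chosen with results of these data known, were counted in the same fits. Of 46 further G1/S genes, 39 fell and 2 rose with CpG in B6, 36 and 2 in SjSS, and with ACs 9 fell and 1 rose in B6 and 31 and 6 in SjSS. Of all tested genes, 29.8% and 26.4% fell with CpG in B6 and SjSS, and 18.3% and 29.4% fell with ACs, so the 9 of 46 with ACs in B6 lay near the share of all genes. Their median log2 fold changes were -1.12 and -0.76 with CpG and -0.22 and -0.54 with ACs. Among the largest decreases were those of the uracil-DNA glycosylase Ung (-2.27 and -1.74 with CpG, -0.82 and -2.22 with ACs), of the cohesion factor Dscc1 (-1.59 with CpG and -1.62 with ACs in SjSS) and of the CDK inhibitor Cdkn1c (-1.45 with ACs in B6). All 3 were of low level. With ACs, Ung went from 3.41 to 0.732 CPM and Dscc1 from 1.17 to 0.375 CPM in SjSS, and Cdkn1c from 3.09 ± 1.82 to 1.14 ± 0.480 CPM in B6. Cdkn2b, which encodes the CDK4 and CDK6 inhibitor p15, had the largest increase in each of the 4 responses. Its mean was 0.848 CPM in control, 3.33 CPM in AC treated and 2.65 CPM in CpG treated B6 BMDMs, and 0.820, 3.45 and 3.19 CPM in SjSS (log2 fold changes of 1.96, 1.63, 2.08 and 1.96). Other increases named by the rule given below were of Rbl1, which encodes the pocket protein p107 (1.23 with ACs in SjSS), of Cdkn2d (0.23 with CpG in B6) and of E2f3 (0.25 with CpG in SjSS). The 6 that rose with ACs in SjSS also included Rfc3 (0.89 ± 0.09) and Mcm10 (0.54 ± 0.18). Cdkn2d was at 7.00 CPM in control and 12.6 CPM in AC treated SjSS BMDMs.

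Of 50 further G2/M genes, 35 fell and 1 rose with CpG in B6 and 23 fell and 1 rose in SjSS, and with ACs 3 fell and 1 rose in B6 and 15 fell and 4 rose in SjSS. Against the same shares of all genes, the 15 of 50 with ACs in SjSS lay near the 29.4% of all genes, and the 3 of 50 in B6 lay below the 18.3%. The centromeric histone gene Cenpa fell most with CpG (-2.07 and -1.90) and with ACs in B6 (-0.74). Other decreases were of the CDK1 inhibitory kinase Wee1 (-1.81, CpG in B6), Mybl2 (-1.22, CpG in SjSS), Ncapd2 of condensin (-0.54, AC in B6) and Cdca2 and Ccnf (-1.18 and -0.92, AC in SjSS). Pttg1, which encodes securin, had the largest increase in all 4 responses, 0.23 and 1.33 with ACs and 0.36 and 0.35 with CpG in B6 and SjSS, and the mitotic kinesin Kif4 rose by 0.55 with ACs in SjSS.

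Of 14 targets of p53 other than Cdkn1a, 3 rose and 3 fell with ACs in B6, 6 rose and 4 fell with ACs in SjSS, 3 rose and 8 fell with CpG in B6, and 4 rose and 6 fell with CpG in SjSS. Of all tested genes 20.0% rose and 18.3% fell with ACs in B6, 28.6% and 29.4% in SjSS, and 28.1% and 29.8% with CpG in B6 and 27.8% and 26.4% in SjSS. Plk2 and Mdm2, the ubiquitin ligase that targets p53, rose with ACs in both strains (0.99 and 1.74, 0.46 and 0.81), while Sesn2 (-0.56 and -1.65) and Trp53inp1 (-0.57 and -1.14) fell. With CpG, Trp53inp1 fell (-2.23 and -1.50), as did Pmaip1 in B6 (-1.05) and Bbc3 in SjSS (-1.37), both of which encode proapoptotic proteins, and Btg2, an antiproliferative gene, rose (2.05 and 1.27), as did Bax in B6 (0.61) and Aen in SjSS (0.51).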

How the data were processed

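Reads were mapped by the authors with STAR to the mouse build mm10, and transcripts were then quantified in Partek by an E/M method. The deposited table held estimated counts of 20615 genes in 18 samples, without normalization. DESeq2, given as version 3.13, is also named in the submitters' processing notes. The counts were rounded to whole numbers. The analysis used R 4.3.3 and edgeR 4.0.16 (filterByExpr, TMM, 1 quasi-likelihood model with a mean for each of 6 groups), limma 3.58.1 and, as an alternative, DESeq2 1.42.0, in 11 comparisons. P values were adjusted over all 15789 tested genes within each comparison by the Benjamini-Hochberg method, and a gene passed at an adjusted p under 0.05. The study's limit of a log2 fold change over 1.3 in size was counted beside it. The standard error is the size of the log2 fold change divided by the square root of F. Promoters, overlaps and figures used Python 3.11.15 with pandas 2.3.3, numpy 2.4.6 and matplotlib 3.10.9. The fits were tested on simulated data, drawn for each sample on its own and so without any link between same-numbered samples. The outcome is not given here, and such a test cannot bear on the part of replicate numbers.

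The 50 genes, the further lists and the split into sets were chosen with earlier results of these data known. All 50 are described. Of the further lists, those genes are named that had the largest 2 increases and 2 decreases among genes that passed in a response. 1 result under this rule is not reported here. Coordinates are those of the deposited table (mm10), whose gene ends lay 1 base past those of GENCODE M21 for 46 of the 50. Of the 50, 17 overlapped another gene of the table, 2 of them on the same strand, and 5 had a pseudogene named after them. Strand use in counting was not given in the sources used here.

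Replicate numbers came from the labels, which do not say what they share. Same-numbered samples correlated in their deviations from the group means by over 0.1 in all 3 pairs only for control and CpG treated B6 BMDMs (0.260, 0.264 and 0.137). Blocked counts are printed beside the results where they moved a count by over 1.5 times. No 2 samples of a group agreed within sampling noise. Alternatives were other size factors, filters and tools, only the groups compared, the replicate block, leaving out each sample and, added later, leaving out the 3 B6 samples numbered 1.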

Additional observations from a re-analysis of the deposited data

Results flagged for a closer look

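These genes are listed because their response to the same treatment differed between the strains by a test of the interaction (edgeR's quasi-likelihood test, adjusted p under 0.05, response in SjSS minus response in B6, on the log2 scale, n = 3 per group). With ACs the response was higher in SjSS for Ccnd1 (0.90), Ccnd2 (2.48), Ccne1 (1.09), Cdkn1a (1.55), Cdt1 (0.61) and Pcna (0.46). It was lower in SjSS for Cdk2 (-0.78), Cdkn1b (-1.41), E2f1 (-0.51), E2f2 (-1.38), Myc (-0.42), Mcm2 (-0.97), Mcm3 (-0.72), Mcm4 (-0.45), Mcm5 (-0.80), Mcm7 (-0.84) and Cdc25b (-0.84). With CpG it was higher in SjSS for Ccnd1 (1.07), Ccne1 (0.69), Myc (0.63) and Cdt1 (0.65), and lower for Cdkn1b (-0.61). Of these, Myc with either treatment and Ccne1 with CpG lost the call in fits without 1 sample.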

How the results depend on the processing

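Of 243 passing results of single genes, 0 changed direction in 3148 refitted values, and 58 lost the call in at least 1 of them, by 5 in DESeq2, 7 with its size factors in edgeR, 6 without a filter on low counts, 1 with at least 10 counts in 3 samples, 14 in fits of only the groups compared and 16 of 156 without the B6 samples numbered 1. Leaving out 1 sample lost 186 of 1590. DESeq2's scaling moved the median of all genes by less than 0.03 on the log2 scale.

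With a log2 fold change over 1.3 in size, the G1/S counts were 0 for ACs in B6, 4 for ACs in SjSS, 8 and 4 for CpG, 6 and 5 for AC against CpG, 0, 3 and 0 for strain in control, AC and CpG treated BMDMs, and 4 and 0 for the interactions with AC and CpG. The G2/M counts were 0 in every comparison except 1 for CpG in SjSS. Shares of all genes past this limit are given above for ACs, CpG and the AC interaction. For AC against CpG, strain and the CpG interaction no such share is given, so these counts cannot be set against all genes. In fits of only the groups compared the G2/M counts were 2 and 10 for ACs in B6 and SjSS, 13 for CpG in SjSS, 11 and 0 for strain after AC and CpG, and the G1/S count for the CpG interaction was 3. In DESeq2 that count was 10, and the G2/M counts for strain were 5 in controls and 3 after CpG (2 with its size factors in edgeR). Without the B6 samples numbered 1 the G2/M counts were 3 for ACs, 14 for CpG and 15 for AC against CpG in B6, where 31.0%, 50.3% and 37.8% of all tested genes passed. The share of all genes was not counted in the fits of only the groups compared or in DESeq2. The cause of these shifts was not tested.

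With the replicate block the G2/M counts were 7 for ACs, 16 for CpG and 15 for AC against CpG in B6, 15 for CpG in SjSS and 4 for the AC interaction, and the G1/S count for the CpG interaction was 12. The block lost 0 of 187 calls of single genes. Same-numbered samples correlated by 0.0198 to 0.264 in B6, where 7 of 9 pairs correlated best with their own number, and by 0.0272 to 0.142 in SjSS, where 9 of 9 did. The sources used here do not say whether a number marks a mouse. No paired fit was possible for differences between strains, because the mice differ.

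Leaving out 1 sample, the G1/S counts were 8 to 17 for ACs in B6, 21 to 24 for ACs in SjSS, 25 to 26 and 23 to 26 for CpG, 22 to 25 and 17 to 19 for AC against CpG, 8 to 9, 19 to 23 and 8 to 11 for strain in control, AC and CpG treated BMDMs, and 15 to 18 and 3 to 9 for the interactions with AC and CpG. The G2/M counts were 0 to 2 and 3 to 6 for ACs, 5 to 17 and 4 to 6 for CpG, 3 to 16 and 4 to 6 for AC against CpG, 0 to 6, 4 to 9 and 0 to 4 for strain, and 1 to 2 and 0 to 0 for the interactions. The share of all genes is not given for fits without 1 sample, here or above. A shift of these counts can therefore not be told from a shift of all genes.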
